A study of Homo sapiens with 6 samples.

Results

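The genes described here encode the proteins of the cytosolic ribosome. A gene was a member when the platform annotation gave a probe set its symbol alone, and when that symbol was RPL or RPS followed by a number (with an optional final A, L or X), or one of RPSA, RPLP0, RPLP1 and RPLP2. When several probe sets carried one symbol, the one with the highest mean over the 6 arrays was used. The rule matched 94 of the 19460 tested probe sets and gave 61 members, 39 of the large subunit and 22 of the small subunit. RefSeq (GRCh38.p14) lists 81 protein-coding genes with such symbols. Of the other 20, 11 are annotated only on probe sets shared with other genes (RPL6, RPL9, RPL13A, RPL21, RPL36A, RPL37, RPL39, RPS10, RPS12, RPS18 and RPS26). The remaining 9 are not analysed here.

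The samples were neural stem cells (NSCs) at passage 14, derived from SA-01, an established line of human embryonic stem cells. Both groups were plated on a polyornithine and laminin coat, and treatment began 5 h later and lasted 24 h, with the solvent DMSO at 0.1% in one group and with X5050 at 100 µM in the other. The series title describes X5050 as an inhibitor of REST, the transcriptional repressor of neuronal genes, so the comparison asks which transcripts differ after this treatment. Each group had 3 biological replicates on 1 Affymetrix array each, and the design text was read as 3 independent cultures that each supplied a DMSO and an X5050 sample. All values are log2 signals, and every change is X5050 minus DMSO. A signal depends on the probes as well as on the transcript, so signals of different genes are not compared as transcript amounts. In bulk RNA, fewer cells of a type and less RNA per cell cannot be told apart.

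A ribosome is built from a small subunit, which reads the mRNA, and a large subunit, which joins amino acids, and each holds one copy of most of its proteins, the acidic stalk proteins being the exception. Cells coordinate the supply of these proteins, mostly through mRNAs that begin with a cytosine followed by a run of pyrimidines, the terminal oligopyrimidine (TOP) sequence, whose translation follows growth signals through mTORC1. Proliferating cells such as neural stem cells spend much of their transcription on ribosomes. Individual ribosomal proteins that are left unassembled, above all RPL5 and RPL11, can bind the ubiquitin ligase MDM2 and so stabilise p53.

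Many members have a run of pyrimidines at their start site, which the member rule did not use. The RefSeq promoter table held 50 of the 61 members. The windows below run from 10 bases before the annotated start to 20 bases from it, 5′ to 3′, and capitals mark the unbroken run of C and T that covers the start. They were chosen to set the 3 members with the most negative change, RPL35, RPS21 and RPLP2, beside RPS6 and RPL28 with changes near or above 0 and RPS27 beside its paralog RPS27L, whose start, like that of the paralog RPL10L, holds no such run.
RPL35: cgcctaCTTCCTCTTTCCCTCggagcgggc
RPS21: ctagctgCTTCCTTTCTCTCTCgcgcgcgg
RPLP2: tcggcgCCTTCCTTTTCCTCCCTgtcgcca
RPS6: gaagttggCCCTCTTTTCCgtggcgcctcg
RPL28: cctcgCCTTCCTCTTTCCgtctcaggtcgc
RPS27: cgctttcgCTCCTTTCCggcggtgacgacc
RPS27L: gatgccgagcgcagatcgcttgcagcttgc
RPL10L: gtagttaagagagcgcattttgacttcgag

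These windows lie in GRCh38.p14 at chr9:124861938-124861967 on the minus strand (RPL35), chr20:62387093-62387122 on the plus strand (RPS21), chr11:809957-809986 on the plus strand (RPLP2) and chr9:19380217-19380246 on the minus strand (RPS6). Those of RPL28 and RPS27 are chr19:55385922-55385951 and chr1:153990752-153990781, both on the plus strand. Those of RPS27L and RPL10L are chr15:63157458-63157487 and chr14:46651762-46651791, both on the minus strand. All of them cover the first transcribed bases of the gene and the promoter just before them. A run of at least 8 C or T letters covered the annotated start in 31 of the 50 members (62%), against 4.8% of all 27305 promoters of the table. A shorter run covered it in 7 members, and in 12 the start base was neither C nor T. The first base was C in 74% of the members and in 15% of all promoters. Over the whole 300-base promoter and on both strands, CCGGAAG, a core that ETS family factors bind, was found in 36% of the members and 10.7% of all promoters. AAGATGG, a YY1 core, was found in 12% and 6.06%, the E-box CACGTG in 4% and 7.43%, and the TATA box TATAAA in 10% and 12%. The first 2 of these motifs can overlap by the letters AAG, and a match is a description of the letters only. The pyrimidine run covered the start in 13 of the 20 members with a change under -0.20 and in 18 of the 30 others.

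Before the members are compared, one array has to be named. DMSO replicate 3 had the highest value of the 6 arrays for 53 of the 61 members, while DMSO replicate 1 had it for 3 and DMSO replicate 2 for 1. The median deviation of a member from its own mean over the arrays was 0.24 on DMSO replicate 3, 0.036 on DMSO replicate 2 and -0.062 on DMSO replicate 1. It was -0.087, -0.11 and -0.011 on X5050 replicates 1, 2 and 3, so DMSO replicate 1 lay among the X5050 arrays and X5050 replicate 2 was the lowest. The median member stood 0.28 higher on DMSO replicate 3 than on DMSO replicate 1, whereas the median of all tested probe sets stood 0.017 higher. Values without that array are given beside the medians of the members' groups and beside the named members that it moved most.

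**Figure D1:**
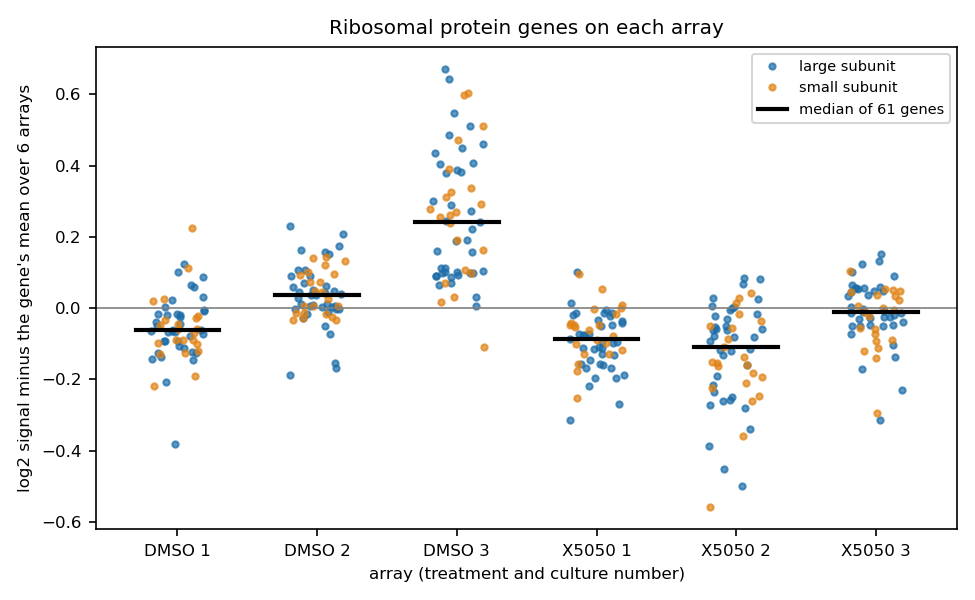
Each point is 1 of the 61 ribosomal protein genes, placed by its log2 signal minus its own mean over the 6 arrays (vertical axis) on each array (horizontal axis), with black bars for the medians. The median is 0.24 on DMSO 3 and between -0.11 and 0.036 on the other 5 arrays.

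Most ribosomal protein genes had slightly lower signals with X5050, and no member passed the test. The median change was -0.11 (1.08-fold lower), with 57 members below 0 and 4 above, while the median of all 19460 tested probe sets was 0.0092 and 47.3% of them lay below 0. The limma fit without a block called 0 members in either direction at an adjusted p under 0.05 (background 0% of probe sets lower and 0% higher). At an unadjusted p under 0.05 it had 11 members lower and 0 higher, 18% of the members, where 4.88% of all probe sets were lower and 4.5% higher. With each X5050 sample set against the DMSO sample of its own number, limma still called 0 members, against a background of 0.308% of probe sets lower and 0.19% higher, and had 20 members lower (32.8%, background 7.48%) and 0 higher (background 7.06%) at an unadjusted p under 0.05. The smallest adjusted p of a member was 0.306 in limma without the block and 0.0733 in the paired fit, both for RPL35. All 3 X5050 values lay below all 3 DMSO values for 10 members (16.4%, background 7.41%) and above them for 0 (background 7.51%).

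Without DMSO replicate 3 the median change was -0.030, with 42 of 61 members below 0 (68.9%, against 46.4% of all tested probe sets). The count at an unadjusted p under 0.05 was then 3 members lower, 4.17% of all probe sets being so. The X5050 values lay below the 2 remaining DMSO values for 11 members (18%, against 11.6% of all) and above them for 1 (1.64%, against 13.3%). Scaling moved the count below 0 as well: centring each array on its median gave 59 with a member median of -0.13, and a further quantile normalization gave 46 with a member median of -0.065.

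The size of the change differed from culture to culture, and whether that difference exceeds chance was not tested. The median change of the members was -0.029 in culture 1, -0.12 in culture 2 and -0.24 in culture 3. Below 0 were 38 members in culture 1, 55 in culture 2 and 58 in culture 3, where 49.8%, 49.4% and 49.1% of all tested probe sets were. The most negative value of the 3 cultures came from culture 3 for 38 members, from culture 2 for 18 and from culture 1 for 5. In total 33 members were lower in all 3 cultures (54.1%, background 17.5%) and 0 were higher in all 3 (background 18%). Those 33 are also the count lower in both cultures 1 and 2, where the share of all probe sets was 27%. In the paired fit without culture 3 the median was -0.059 with 49 members below 0.

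**Figure D2:**
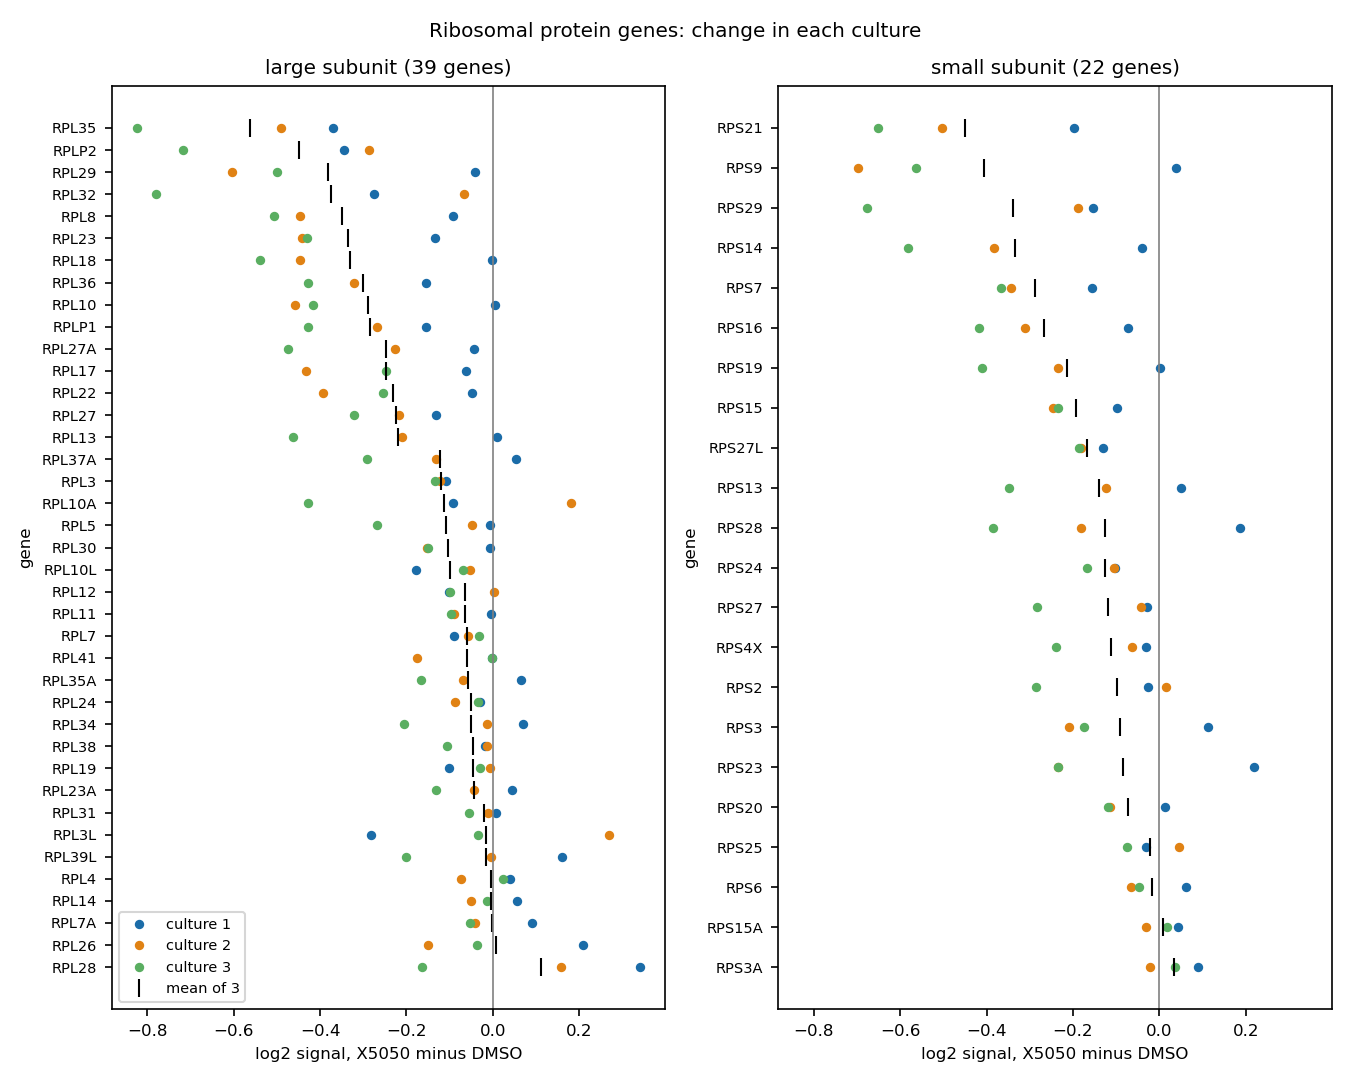
Log2 change, X5050 minus DMSO (horizontal axis), for each of the 39 large subunit and 22 small subunit genes, with 1 coloured point for each culture and a bar for the mean of the 3. Culture 3 lies farthest to the left for 38 of the 61 genes, and RPL28 and RPS3A lie highest.

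Large and small subunit genes differed by less than the cultures did. The median change was -0.10 over 39 large subunit members (37 below 0) and -0.13 over 22 small subunit members (20 below 0), a large minus small difference of 0.023. By culture that difference was -0.0023, 0.091 and 0.060 (SD over cultures 0.048). All X5050 values were below all DMSO values for 6 large and 4 small subunit members (15.4% and 18.2%, background 7.41%). Lower in all 3 cultures were 23 of the 39 large and 10 of the 22 small subunit members (background 17.5%). The sign of the difference is not settled: it was 0.085 without X5050 replicate 1, -0.0099 without DMSO replicate 3 and -0.023 in the paired fit without culture 3. The medians without DMSO replicate 3 were -0.033 for the large subunit (27 below 0) and -0.023 for the small subunit (15 below 0).

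RPL35, a protein at the rim of the tunnel through which the new chain leaves the large subunit, had the most negative change of all members. Its signals were 10.90, 11.03 and 11.31 in DMSO replicates 1, 2 and 3 and 10.53, 10.54 and 10.48 in X5050 replicates 1, 2 and 3. The groups do not overlap, and the 3 X5050 arrays lay within 0.1 of each other while the DMSO arrays spread more widely (SD 0.029 and 0.21). The change was -0.56 (SE 0.11, 95% interval -0.83 to -0.30, 1.48-fold lower, limma adjusted p = 0.306, n = 3 per treatment). Without DMSO replicate 3 it was -0.45, and with any 1 array or culture left out it stayed between -0.66 and -0.43. The other exit tunnel proteins were closer to 0. The median over 9 measured proteins of the tunnel and its rim was -0.045 (-0.0088 without DMSO replicate 3), with RPL17 at -0.25, RPL31 at -0.020 and RPL26 at 0.0067.

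The acidic stalk of the large subunit, which recruits elongation factors, was measured through RPLP1, RPLP2 and the stalk base protein RPL12. RPLP2 had signals of 11.30, 11.43 and 11.76 with DMSO and 10.96, 11.14 and 11.04 with X5050, again without overlap. Its change was -0.45 (SE 0.13, 1.37-fold lower, limma adjusted p = 0.368, n = 3 per treatment) and -0.32 without DMSO replicate 3. Its partner RPLP1 was at 10.78, 10.96 and 11.23 with DMSO and at 10.63, 10.69 and 10.80 with X5050, a change of -0.28 (SE 0.13), or -0.16 without DMSO replicate 3. Here X5050 replicate 3 lay above DMSO replicate 1, so the groups overlap on this probe set. On the other RPLP1 probe set (signal 10.6) the change was -0.30 and the groups did not overlap. RPL12 had a change of -0.065 on the probe set chosen by the rule and is taken up again with the other probe sets of its gene.

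Other large subunit members among the 10 with the smallest p were RPL10, RPL8, RPL23, RPL36 and RPL17. RPL8 lies near the site where peptide bonds form, and its change was -0.35 (SE 0.14), or -0.22 without DMSO replicate 3. RPL23, one of the proteins reported to bind MDM2, stood at -0.34 (SE 0.13) on a dim probe set (mean signal 6.08, under the 6.26 that was the median of all tested), and RPL36 at -0.30 (SE 0.12). Without the same array these 2 were at -0.22 and -0.19. RPL10, which joins late in the maturation of the large subunit, was at -0.29 (SE 0.11) but was 0.0059 in culture 1. RPL17, which lines the exit tunnel, was at -0.25 (SE 0.10) on a probe set with a mean signal of 8.24. Brighter probe sets that RPL17 shares with RPL17-C18orf32, outside the member rule, were at -0.0036 (signal 12.3) and 0.0061 (signal 11.9). The limma adjusted p of these 5 genes ran from 0.484 to 0.527. RPL5 and RPL11, which assemble with the 5S rRNA and are the best known inhibitors of MDM2, had changes of -0.11 (95% interval -0.40 to 0.18) and -0.064 (95% interval -0.25 to 0.12). RPL5 was at 0.016 and RPL11 at -0.030 without DMSO replicate 3. Another RPL5 probe set of nearly the same signal (12.04 against 12.06) had a change of 0.0037, and a dimmer one (7.63) had -0.11. RPL3, a protein of the core of the subunit, had nearly the same change in every culture (-0.11, -0.12 and -0.13), with a change of -0.12 (SE 0.10), or -0.056 without DMSO replicate 3.

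RPL28, a large subunit protein, had the highest change of all members, 0.11 (SE 0.16, 95% interval -0.27 to 0.49). Its signals were 9.31, 9.62 and 9.98 with DMSO and 9.65, 9.77 and 9.81 with X5050. The DMSO range encloses the X5050 range, and the change was 0.34, 0.16 and -0.16 in cultures 1, 2 and 3. With 1 array or culture left out it ranged from -0.052 to 0.28, so its direction is not settled.

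In the small subunit RPS21, a protein of the body that takes part in the maturation of its rRNA, had the most negative change. It had signals of 8.47, 8.60 and 8.96 with DMSO and 8.27, 8.09 and 8.31 with X5050, and the groups do not overlap. Its change was -0.45 (SE 0.14, 1.37-fold lower, limma adjusted p = 0.411, n = 3 per treatment), or -0.31 without DMSO replicate 3. RPS7, whose loss impairs the processing of small subunit rRNA, was at -0.29 (SE 0.10) without overlap. RPS16, a head protein that reaches toward the decoding site, was at -0.27 (SE 0.11), also without overlap, and at -0.17 without DMSO replicate 3. RPS9 was at -0.41 (SE 0.21; -0.21 without DMSO replicate 3) with values of 0.039, -0.70 and -0.56 in cultures 1, 2 and 3 and overlapping groups. Its other probe set, of nearly the same signal (10.976 against 10.981), was at -0.29, with 0.16, -0.66 and -0.38 in cultures 1, 2 and 3. RPS19, the protein most often mutated in Diamond-Blackfan anaemia, was at -0.21 (SE 0.11), at 0.0025 in culture 1 and at -0.12 without DMSO replicate 3. RPS6, the substrate of the S6 kinases, was at -0.018 (95% interval -0.23 to 0.19).

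Head and body proteins of the small subunit differed little in their medians. The 8 measured head proteins had a median of -0.16, all of them below 0, and the 13 measured body proteins one of -0.12 with 11 below 0. These medians were, without DMSO replicate 3, -0.062 (5 below 0) and -0.020 (9 below 0). RPS3A (0.035, SE 0.079) and RPS15A (0.0094, SE 0.083) of the body were the 2 small subunit members above 0. RPS15A was -0.0097 after each array was centred, and RPS3A -0.011 as the mean of its probe sets, so neither shows a direction. RPS2, RPS20 and RPS25, the members with the brightest probe sets (mean signals 12.4, 12.8 and 12.8), had changes of -0.099, -0.074 and -0.021, and of -0.027, -0.010 and 0.0090 without DMSO replicate 3. On dimmer probe sets RPS2 was at -0.26 (signal 10.5) and -0.30 (signal 10.4), and RPS25 at -0.19 (signal 11.6).

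The other 7 members whose groups do not overlap were RPL8, RPL17, RPL27, RPL36, RPS7, RPS14 and RPS16. RPL8 was at 10.95, 11.07 and 11.40 with DMSO and 10.85, 10.62 and 10.89 with X5050, and RPL36 at 8.39, 8.42 and 8.75 and then 8.24, 8.10 and 8.32. RPL17 was at 8.22, 8.42 and 8.46 with DMSO and 8.15, 7.98 and 8.22 with X5050. RPS7 was at 9.50, 9.57 and 9.78 with DMSO and 9.34, 9.22 and 9.42 with X5050. In these 4 genes DMSO replicate 3 was the highest array and X5050 replicate 2 the lowest. RPS16 was at 11.06, 11.19 and 11.42 with DMSO and 10.99, 10.88 and 11.001 with X5050. RPS14 and RPL27 had changes of -0.33 and -0.22, and of -0.18 and -0.14 without DMSO replicate 3. The gap between the groups was narrow, and in all of the 7 except RPL27 it lay between DMSO replicate 1 and X5050 replicate 3.

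In the paired fit without culture 1, 4 members fell, where the fit to all cultures had called 0. They were RPS9 (-0.63, limma adjusted p = 0.0229), RPL35 (-0.66, adjusted p = 0.0240), RPS21 (-0.58, adjusted p = 0.0334) and RPL29 (-0.55, adjusted p = 0.0394), from 2 cultures. That is 6.56% of the members, where this fit called 1.2% of all probe sets lower (233) and 0.581% higher (113). Without culture 2 or without culture 3 it called 0 members. Over all arrays RPL29 was at -0.38 (SE 0.19), or -0.20 without DMSO replicate 3, and its groups overlap on this probe set. A dimmer RPL29 probe set (signal 8.46) was at -0.42 and separated the groups.

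Paralogs, which stand in for another ribosomal protein in some tissues, had a median change of -0.058 over 4 genes (-0.022 without DMSO replicate 3). RPS27L, the near-copy of RPS27 whose transcription is raised by p53, had signals of 8.13, 8.04 and 7.80 with DMSO and 8.003, 7.86 and 7.61 with X5050. The groups overlap, and DMSO replicate 3, the highest array for most members, held the lowest DMSO value here. Within cultures its change was -0.13, -0.18 and -0.19, with a mean of -0.17 (SE 0.13, paired SE 0.086, limma adjusted p = 0.791 and 0.437 paired). Without that array RPS27L was at -0.26. RPS27 itself stood at -0.12 (SE 0.11), with -0.029, -0.042 and -0.28 by culture, and at -0.017 without DMSO replicate 3. RPL3L, a form of RPL3 made mainly in muscle, was at -0.016 (SE 0.12) and RPL39L, a form of RPL39 known from the testis, at -0.015 (SE 0.100). RPL39L was 0.012 after a further quantile normalization. RPL10L, a testis form of RPL10, was at -0.10 (SE 0.087). RPL3L and RPL10L had mean signals of 6.06 and 5.69, below that same median of all tested probe sets. Without the 4 paralogs the member median was -0.12.

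The size of the change varied with the signal of the probe set. The 27 brightest members, with mean signals of 11.54 and above, had a median change of -0.064, the 14 between 10 and 11.47 had -0.26 and the 14 between 8 and 10 had -0.24. The 6 under 8 had a median of -0.13. Without DMSO replicate 3 these 4 medians, in the same order, were -0.0088, -0.14, -0.12 and -0.11. The middle classes took their values from cultures 2 and 3 (-0.25 and -0.43 for the brighter, -0.28 and -0.33 for the dimmer). In culture 1 those 2 classes were at -0.058 and -0.055, and the dimmest class was the lowest at -0.16. The median SD between DMSO arrays was 0.11, 0.23, 0.22 and 0.17 in these 4 classes, in the same order. Other tested probe sets had medians of -0.033 (64 probe sets), -0.013 (804), 0.0024 (3390) and 0.013 (15108) in the same classes, with 73.4% of the 64 brightest below 0. Over the 61 members the Spearman correlation of mean signal with change was 0.42 and the Pearson correlation 0.32. The members share arrays and normalization, and the part of the signal in the result was not tested.

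**Figure D3:**
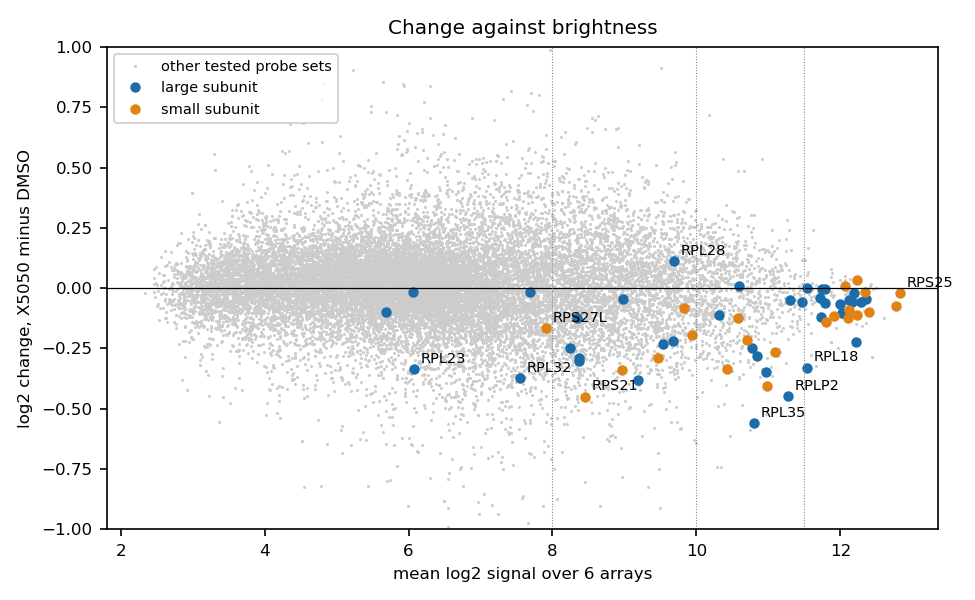
Mean log2 signal over the 6 arrays (horizontal axis) against the log2 change (vertical axis) for the 61 members, coloured by subunit, and all other tested probe sets in grey, with dotted lines at the class bounds and 21 grey probe sets beyond the axis range. The 27 brightest members have a median of -0.064 and run from -0.33 to 0.035, and the 2 classes to their left have lower medians (-0.26 and -0.24).

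Probe sets of one gene did not always give one answer. Of the members, 21 had more than 1 probe set, 33 further probe sets in all, and for 13 genes these differed by more than 0.1 in their change. RPL41, the smallest protein of the ribosome, had a change of -0.059 on its brightest probe set (signal 12.2) and -0.46 (SE 0.11, limma adjusted p = 0.341) on another at 8.20. RPL12 had -0.065, -0.067 and -0.069 on 3 probe sets with signals of 11.99, 11.96 and 11.36, and -0.41 (SE 0.15) on the fourth at 9.53. In both genes the dimmer probe set separated the groups and the brighter ones did not. RPS15 and RPL31 went the other way, with 0.16 and 0.17 on the dimmer probe set against -0.19 and -0.020. The dimmest probe set had the lower change in 13 of the 21 genes and the higher one in 8. Ribosomal protein genes have many processed pseudogenes and probes can bind their transcripts too, so values of such genes are uncertain. With the dimmest probe set of each gene in place of the brightest, the member median was -0.12 and 55 of 61 lay below 0.

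**Figure D4:**
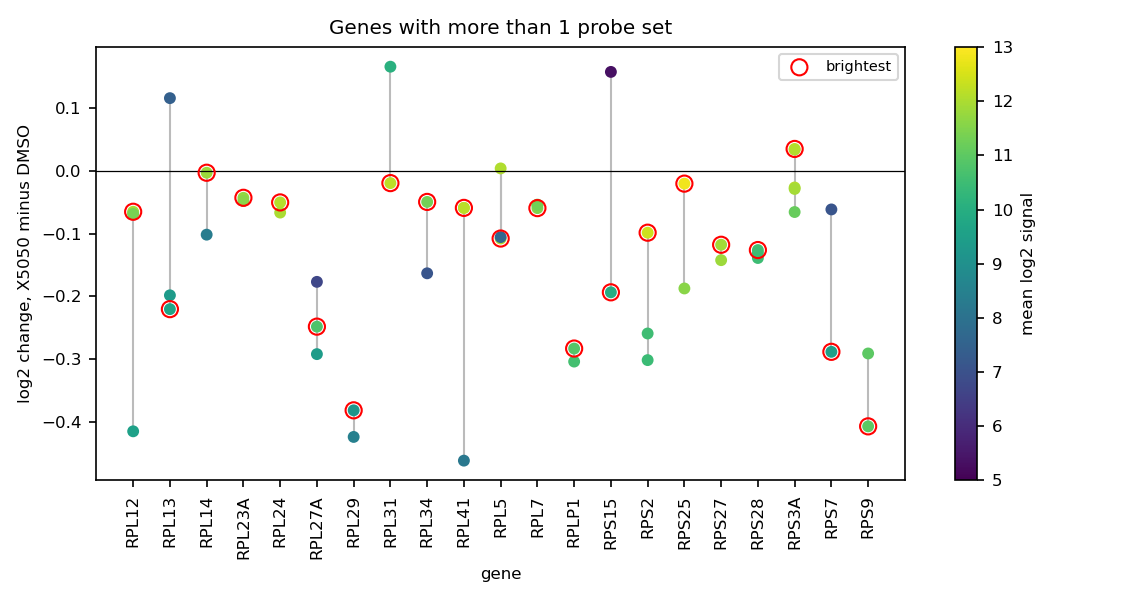
Log2 change (vertical axis) of every probe set of the 21 genes with more than 1 (horizontal axis), coloured by mean log2 signal, with a red ring on the brightest. RPL12 and RPL41 have a dimmer probe set at -0.41 and -0.46 below brighter ones near -0.06.

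Some ribosomal protein genes hold small nucleolar RNAs, guides of rRNA modification, in their introns. The 17 measured genes of a fixed host list had a median of -0.11 with 17 below 0. The other 44 members had one of -0.12 with 40 below 0. Leaving out DMSO replicate 3 gave -0.035 (12 below 0) and -0.027 (30 below 0). The list is incomplete: it lacks RPL13 and RPS3A, which share probe sets with SNORD68 and SNORD73A and are counted among the 44. RPL13 was at -0.22 and RPS3A at 0.035, or -0.052 and 0.051 without DMSO replicate 3. Gene span in GRCh38.p14 correlated with the change at a Spearman rho of 0.24 over the 61 members. Ribosomal protein genes outside the member rule were measured through 5 genes, 4 below 0, with a median of -0.13. FAU, which encodes a small subunit protein fused to a ubiquitin-like one, was at -0.48 (SE 0.17), RPL7L1, a factor of large subunit assembly, at -0.35 (SE 0.10), and RPL36AL at -0.13 (SE 0.078).

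Most genes of the other lists for ribosome supply lay below 0 as well, and limma called 0 of their genes in either fit. Ribosome assembly factors had a median of -0.13 (-0.20 without DMSO replicate 3), with 44 of 54 genes below 0, 12 lower and 1 higher at an unadjusted p under 0.05. Of all tested probe sets, 4.88% were lower and 4.5% higher by the same limma fit. NHP2 and GAR1, of the particles that turn uridine into pseudouridine in rRNA, were at -0.58 (SE 0.13) and -0.38 (SE 0.089), and the nucleolar protein RRP1B at -0.32 (SE 0.082). RNA polymerase I and its factors had a median of -0.15 with 16 of 20 below 0, the members with the smallest p being POLR2F (-0.31), POLR2L (-0.40) and POLR1G (-0.25). POLR2F and POLR2L are shared with RNA polymerases II and III. Initiation and elongation factors had a median of -0.077 with 26 of 35 below 0. EIF2S3, the GTP-binding subunit that brings the initiator tRNA, was at 10.67, 10.55 and 10.66 with DMSO and 10.06, 10.11 and 10.28 with X5050, without overlap, and DMSO replicate 3 was not its highest array. Its change was -0.48 (SE 0.092, limma adjusted p = 0.282). EIF4H and EIF2S2 were at -0.26 and -0.24, and EEF1B2 and EEF1D, which reload the elongation factor that delivers aminoacyl-tRNA, at -0.28 and -0.31. These last 2 were at -0.16 and -0.17 without DMSO replicate 3.

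Other mRNAs known for a TOP start, among them EIF2S3, EEF1B2 and EEF1D named above, were centred on 0. Their median was -0.0029, with 8 of 15 below 0 (0.024 with 5 below 0 without DMSO replicate 3), and it was 0.051, -0.046 and -0.051 in cultures 1, 2 and 3. Regulators of ribosome supply in the mTORC1 and MYC pathways had a median of 0.031 with 8 of 21 below 0. DEPTOR, an inhibitor of mTOR, was at 0.26 (SE 0.11), the mTORC1 brake TSC1 at 0.17 and MAX, the partner of MYC, at -0.10. MYC, which drives ribosomal protein and rRNA transcription, was at -0.075 (SE 0.29; -0.36 without DMSO replicate 3), with -0.69, 0.098 and 0.37 in cultures 1, 2 and 3. The p53 and MDM2 response list had a median of -0.0068 with 9 of 16 below 0, its members with the smallest p being GDF15 (-0.12), SESN1 (0.13) and DDB2 (-0.10). Without DMSO replicate 3 the list median was -0.068 with 13 below 0, SESN1 was at 0.037 and DDB2 at -0.22.

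Mitochondrial ribosomal proteins, built into another ribosome, had a median of -0.14 with 63 of 72 below 0 (-0.095 with 59 below 0 without DMSO replicate 3), and their culture medians of -0.024, -0.19 and -0.23 had the order of the cytosolic members. MRPL33 was at -0.49 (SE 0.11), MRPL15 at -0.41 (SE 0.089) and MRPL30 at -0.36 (SE 0.091). Proteasome subunits had a median of -0.14 with 31 of 36 below 0, and culture 2 was lowest (-0.044, -0.25 and -0.14), with PSMB6 at -0.35, PSMD3 at -0.33 and PSMA6 at -0.32. The X5050 values lay below the DMSO values for 26 mitochondrial ribosomal (36.1%) and 12 proteasome genes (33.3%), against 16.4% of the cytosolic members. Of all tested probe sets this held for 7.41%. The difference between these lists and the cytosolic members was not tested.

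**Figure D5:**
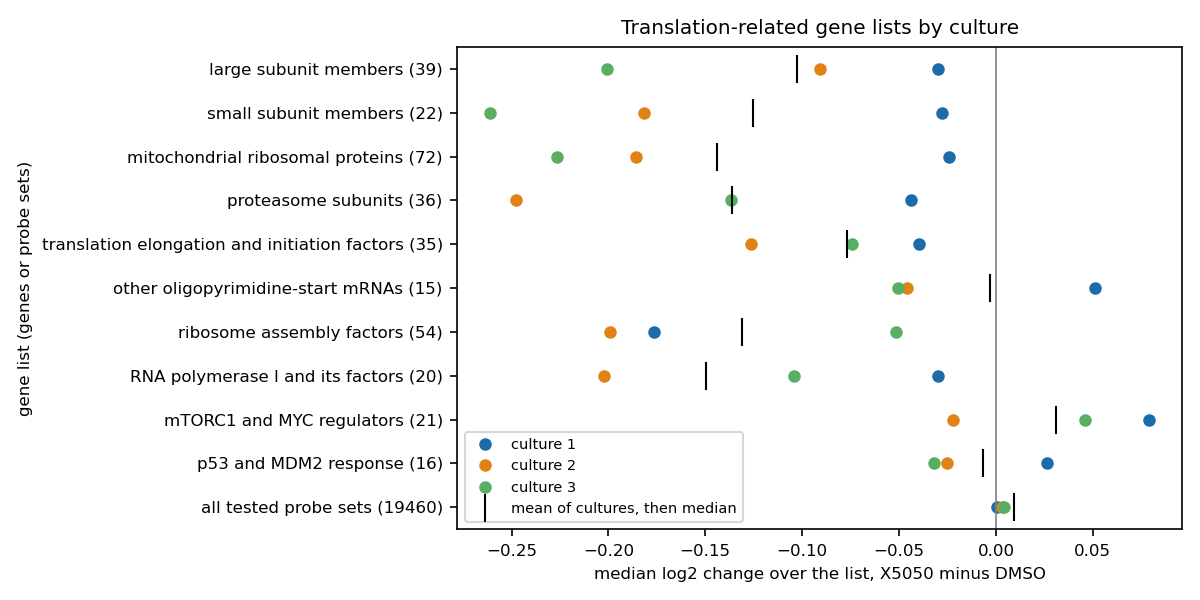
Median log2 change of each gene list (vertical axis, with the number of genes) in cultures 1, 2 and 3 (points) and over the change averaged across cultures (bars). Cytosolic and mitochondrial ribosomal lists are lowest in culture 3, proteasome and assembly lists in culture 2, and all tested probe sets lie at 0.

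Markers of the labelled cells were present and markers of other cells varied between cultures. SOX2, PAX6, FABP7 and VIM, markers of neural stem cells, had DMSO means of 10.9, 10.8, 12.1 and 11.9, above the upper quartile of every array (at most 7.43). The 10 neural stem cell markers had a median change of -0.10 with 7 below 0, and it was -0.098 without DMSO replicate 3. All X5050 values lay below all DMSO values for 2 of them (20%, background 7.41%). The changes of these 10 ran from -0.42 for NES to 0.15 for SOX2, or -0.45 and 0.21 for these genes without DMSO replicate 3. The 7 neuronal markers had a median change of 0.024 with 3 below 0 (0.14 with 2 below 0 without DMSO replicate 3). SNAP25, a synaptic protein and the gene at the median signal of that list, was at 8.27, 8.51 and 8.85 with DMSO and 8.99, 9.11 and 9.52 with X5050, and it rose in the paired fit (0.66, limma adjusted p = 0.0328). Without the block the smallest limma adjusted p of the neuronal markers was 0.366. The neuronal STMN2 was also high, with a DMSO mean of 12.2. The 10 mesenchymal markers had medians of 8.21, 7.005 and 7.001 with DMSO and 7.80, 6.56 and 6.90 with X5050, and 9 of them were below 0 in change. Among them LUM, a matrix proteoglycan, fell in the paired fit (-1.09, limma adjusted p = 0.0386). Without the block the smallest limma adjusted p of these 10 mesenchymal markers was 0.629. Their culture medians of -0.37, -0.28 and -0.11 had the reverse order of those of the ribosomal protein members. The 5 astroglial markers had medians between 5.71 and 6.17 on the 6 arrays, near the array medians of 5.68 to 5.75. The 4 oligodendroglial markers lay below those, between 5.15 and 5.36. The 2 measured pluripotency markers, LIN28A and DPPA4, had medians of 7.22, 7.46 and 7.05 with DMSO and 7.02, 7.11 and 7.14 with X5050. LIN28A had a DMSO mean of 6.29, and DPPA4 was the brighter of the 2. The part of these markers in the ribosomal protein result was not tested.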

How the data were processed

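Per the submitters' processing notes, the authors used RMA and Partek, and the deposited table gives 1 log2 value per probe set and array. Versions, settings and the arrays entered into RMA are not stated in these sources. RMA subtracts background, equalises arrays and summarises probes, which compresses changes of very dim and very bright probe sets. Per the labels' protocols, 100 ng of RNA was labelled for each array. Of 33297 probe sets, the 19460 with 1 gene symbol were tested, 1754 have several and 12083 are unnamed here.

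Treatment was the only term of the limma 3.58.1 model (lmFit and eBayes, R 4.3.3, two-sided). p-values were adjusted by Benjamini-Hochberg over all 19460 and read at 0.05. They measure the spread between these cultures. Only 3 arrays per group limit the precision, and a permutation test over 3 against 3 has a smallest p of 0.1. In the alternative paired model the replicate number enters as a block (residual degrees of freedom 2 in place of 4). The pairing comes from the design text, read as both treatments on each culture. Residuals of arrays with the same number correlated at 0.36, 0.30 and 0.25, and those of unlike numbers at -0.24 to -0.052. Residuals of a probe set cancel out within each group, so positive values for like numbers bring negative ones for unlike numbers. The scripts were tested on simulated data.

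Members, gene lists, signal classes and the naming rule were chosen with earlier results of these data known. Members named were the 10 with the smallest p, the 3 at each end of change and of signal, and a fixed list of stalk, MDM2-binding and paralog genes. From each other list the 3 genes with the smallest p, and MYC, were named. RPS9, RPS14, RPS15, RPL12, RPL13, RPL26, RPL27, RPL29, RPL31, RPL41, SNAP25, LUM, STMN2, NES and DPPA4 were named after their values were seen. Lists are given as counts and medians over the brightest probe set of each gene, with no test. Promoters are from RefSeq (GRCh38.p14), matched by symbol on the main chromosomes. Plots used Python 3.11.15 and matplotlib 3.10.9.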

Additional observations from a re-analysis of the deposited data

How the results depend on the processing

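With the replicate block, limma called 97 probe sets and 0 members, so it changed no member's call. With 1 array left out, limma called 0 to 1 probe sets and 0 members. With 1 culture left out of the paired fit, it called 0 to 346 probe sets (81 without culture 2, 346 without culture 1) and 0 to 4 members. The member median ranged from -0.18 to -0.030 over arrays and from -0.16 to -0.059 over cultures left out. The large minus small subunit difference ranged from -0.0099 to 0.085 and from -0.023 to 0.090. After a further quantile normalization RPL39L was 0.012, RPS25 0.0015 and RPS6 0.021. With centred arrays RPS15A was -0.0097, and as the mean of its probe sets RPS3A was -0.011. Leaving out an array, then a culture in the paired fit, gave ranges of -0.052 to 0.28 and -0.0038 to 0.25 for RPL28, -0.033 to 0.035 and -0.0070 to 0.030 for RPS15A, -0.040 to 0.0091 and -0.053 to 0.0072 for RPS25, -0.083 to 0.027 and -0.057 to 0.0064 for RPS6, -0.092 to 0.033 and -0.10 to 0.078 for RPL39L, -0.11 to 0.060 and -0.16 to 0.12 for RPL3L, -0.20 to 0.016 and -0.16 to -0.028 for RPL5, and -0.36 to 0.28 and -0.30 to 0.23 for MYC. The causes were not tested. Of the values under all settings of the genes chosen by the naming rule, 830 kept their direction and side of the threshold, 28 changed sign and 6 newly passed the threshold, each in the paired fit without culture 1, where RPS9 and RPL29, named outside that rule, passed as well. Using the dimmest probe set of each gene, and the group and list medians without DMSO replicate 3, were chosen after the data were seen. These values carry no depth, and 3 arrays a group limit what such small changes can show.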

Other observations

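Probe sets annotated to a ribosomal protein gene together with other genes were outside the member rule. There were 47 of them, with a median change of -0.12 and 43 below 0. The 3 most negative carried a small nucleolar RNA symbol beside the gene: RPL13 with SNORD68 (-0.68, mean signal 5.73), RPL7A with SNORD24 (-0.65, signal 7.30) and RPL7A with SNORD36A and SNORD36C (-0.47, signal 6.19). The most positive carried one as well, RPS3A with SNORD73A (0.16, signal 7.71), and further such probe sets lay between these ends. The probe set of RPL7A alone, at a signal of 11.54, stood at -0.00083.

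Probe sets of 19 ribosomal protein pseudogenes had a median change of -0.0053, with 12 below 0, at a median signal of 5.94. They ranged from -0.35 (RPS14P3) to 0.14 (RPL23AP53).

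The spread between arrays was larger with DMSO than with X5050 for 52 of the 61 members (85.2%), against 57.7% of all tested probe sets. The median SD over the members was 0.16 with DMSO and 0.085 with X5050. The DMSO values include DMSO replicate 3, which lay above both other DMSO arrays for 55 of the 61 members. The part of that array in the spread was not tested.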
